A study of Mus musculus with 23 samples.

Results

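The nuclear-encoded genes of the mitochondrial respiratory chain were examined in single mouse bone marrow mesenchymal stem cells (mMSCs) and in single HL-1 cardiomyocytes (HL1cm). The members were taken by symbol: names starting with Nduf and a subunit letter and number, with Uqcr, with Cox4 to Cox8 or with Atp5, together with Sdha, Sdhb, Sdhc, Sdhd and Cycs. This gave 86 of 23284 genes, of which 37 are named as subunits of complex I, 4 of complex II, 8 of complex III, 18 of complex IV and 15 of complex V, and 1 is cytochrome c. Another 3 carry a matching symbol but lie outside the complexes (Cox4nb, Atp5s and Atp5sl). The subunit genes Cyc1 and Ndufab1 have symbols that the rule does not match and are not counted. The 13 subunits encoded by mitochondrial DNA were not analysed here.

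The data comprised 16 mMSCs and 5 HL1cm, each sequenced as a library of its own, and a population control of many cells for each type (mMSC-PC and HL1cm-PC). All libraries are labelled with the strain C57BL/6J. By the study's methods the mMSCs were bought in and derived from male mice aged 3 months; they were at passages 6 to 11, with no treatment named. HL-1 is a beating line derived from a mouse atrial tumour, so that HL1cm are cells of 1 immortal line, here at passages 70 to 85 in a medium with norepinephrine; in the study they served as cells that are not MSCs. By the study's methods both cell types went through the same microfluidic capture device, the HL1cm carrying a green dye. They were grown in different media, so cell type and medium cannot be told apart. No separate cultures are named, so each cell type is 1 sample: differences between mMSC and HL1cm are given without a test, and an SD over cells describes the spread between cells only.

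Marker genes matched the labels. Of 12 cardiomyocyte markers, 11 were at least 2-fold higher in HL1cm. Among these 11, Nppa and Nkx2-5 were above 0 in HL1cm1 and HL1cm4 and at 0 in the other single HL1cm. The summed level of the 12 was 34096 to 60475 FPKM in HL1cm, with Myl7 alone at 20292 to 46701 FPKM. In mMSCs the sum was 165 to 1714 FPKM, and Gja1, a gap junction gene of many cell types, made up most of it in every cell. Of 12 mesenchymal markers, 11 passed the filter and all 11 were higher in mMSCs; Ly6a, the Sca-1 antigen, was at 167 to 3900 FPKM in mMSCs and listed at 0 in every HL1cm, and Thy1 was at 0 in all libraries. Of 11 macrophage and blood markers, 7 were at 0 throughout, among them Ptprc and Lyz2, and the summed level reached 369 FPKM in mMSCs, mostly Cd14, and 1.10 FPKM in HL1cm. The sum of 6 endothelial markers stayed at or below 10.8 FPKM in mMSCs and 13.8 FPKM in HL1cm, with Cdh5, Vwf, Tek and Emcn at 0 in single cells. Depth, as far as the table shows it, was lowest in mMSC9 and mMSC15, where about 1 read pair on a transcript of 1 kb was worth 11.6 and 7.74 FPKM; the other single cells lay between 2.10 and 5.69 FPKM. Genes of small RNAs held 4.69 to 75.0% of the summed FPKM of an mMSC and 2.16 to 76.2% of an HL1cm.

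The respiratory chain carries electrons from NADH through complex I, or from succinate through complex II, to ubiquinone, then through complex III to cytochrome c and through complex IV to oxygen. The proton gradient built up on the way drives complex V, the ATP synthase. Most subunits are encoded in the nucleus, and for a few subunits of complex IV the genome holds a second gene whose product replaces the common one in heart and skeletal muscle: Cox6a2 in place of Cox6a1, Cox7a1 in place of Cox7a2 and Cox8b in place of Cox8a. Heart muscle is known for its density of mitochondria.

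Promoter sequence is shown for the 2 pairs of genes on which the isoform results turn: the muscle and the common form of COX7A, and the genes Atp5g1 and Atp5g3 for the c subunit of ATP synthase. RefSeq start regions (build GRCm38.p6, that is mm10), each of 250 bases before and 50 bases after an annotated start, were matched by symbol for 67 of the 86 members, in 72 windows. The parts printed here lie upstream of every exon that GENCODE gives the gene. They cover chr7:30183921-30184143 on the plus strand for Cox7a1, chr9:79759879-79760103 on the minus strand for Cox7a2, chr11:96075671-96075881 on the minus strand for Atp5g1 and chr2:73911327-73911576 on the minus strand for Atp5g3. All read 5′ to 3′ toward the gene, and capitals mark AAGGTCA or its reverse complement, a core letter sequence of the estrogen-related receptor (ERR) element.
Cox7a1: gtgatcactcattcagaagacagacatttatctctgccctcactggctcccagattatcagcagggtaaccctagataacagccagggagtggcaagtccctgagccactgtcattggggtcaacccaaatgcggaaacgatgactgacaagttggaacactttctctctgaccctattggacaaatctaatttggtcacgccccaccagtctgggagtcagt
Cox7a2: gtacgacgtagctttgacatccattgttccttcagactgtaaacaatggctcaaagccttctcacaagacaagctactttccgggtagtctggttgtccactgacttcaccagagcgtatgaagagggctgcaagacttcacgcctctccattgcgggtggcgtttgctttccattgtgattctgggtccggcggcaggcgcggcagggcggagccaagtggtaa
Atp5g1: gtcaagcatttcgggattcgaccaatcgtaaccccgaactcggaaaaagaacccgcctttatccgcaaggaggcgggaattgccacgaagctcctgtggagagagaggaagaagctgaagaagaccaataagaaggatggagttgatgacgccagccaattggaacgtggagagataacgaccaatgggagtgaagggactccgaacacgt
Atp5g3: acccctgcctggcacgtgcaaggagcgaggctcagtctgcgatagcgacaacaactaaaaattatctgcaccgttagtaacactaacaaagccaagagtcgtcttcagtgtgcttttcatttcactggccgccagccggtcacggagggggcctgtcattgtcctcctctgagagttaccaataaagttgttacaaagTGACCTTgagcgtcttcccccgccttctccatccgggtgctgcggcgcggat
Motifs known from promoters of respiratory genes were searched on both strands of the 300-base windows and counted beside all 32851 windows of the table. The NRF1 letters, GCGC and GCGC with any 2 bases between them, were in 19 of 72 member windows (26.4%) and in 6.23% of all windows. The ETS letters CCGGAAG, which the factor GABP can bind, were in 16 member windows (22.2%) and in 8.86% of all. The YY1 letters AAGATGGCG were in 7 (9.72% against 1.40%), and the ERR letters AAGGTCA in 8 (11.1% against 4.72%). The letters CTA and TAG with any 4 bases between them, contained in the muscle factor MEF2's element, were in 1 member window (1.39%, against 3.69% of all). None of the 5 was found in the windows of Cox7a1, Cox7a2 or Atp5g1. The Atp5g3 window held the ERR letters shown above and the NRF1 letters downstream of the printed part. These matches describe letters only.

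Respiratory chain genes were expressed in every single cell and at higher levels in HL1cm. FPKM is a level per transcript length, so members can be summed and set beside each other. The sum over the 86 members ran from 25371 FPKM (mMSC3) to 38154 FPKM (mMSC9) in mMSCs, with a median of 29264 FPKM. In HL1cm the sum was 74994 FPKM in HL1cm1 and 37217 FPKM in HL1cm5, with a median of 63432 FPKM. HL1cm5 thus lay within the range of the mMSCs, and the other 4 HL1cm lay above every mMSC. The mean over cells was 30008 ± 3984 FPKM (SD, n = 16 cells) in mMSCs and 60164 ± 13977 FPKM (SD, n = 5 cells) in HL1cm, 2.00-fold higher, or 2.2-fold without HL1cm5.

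HL1cm5 was the lowest of the 5 HL1cm for 55 of the 82 members that passed the filter and the highest for 1. The same counts over all genes are not given here. HL1cm5 was also the HL1cm library in which genes of small RNAs took the largest part of the FPKM, 76.2%. They took 70.3% in HL1cm1 and 69.7% in HL1cm3, where members summed to 74994 and 63432 FPKM. In HL1cm2 and HL1cm4 they took 14.1% and 2.16%, with member sums of 65084 and 60093 FPKM. The part of small RNA genes in these sums was not tested. With those genes set aside, members made up 4.01 to 5.50% of the remaining FPKM in mMSCs and 8.40 to 12.5% in HL1cm. On that scale HL1cm5, the lowest HL1cm at 8.40%, lay above the highest mMSC. The corresponding shares were 2.83% in mMSC-PC and 8.32% in HL1cm-PC. With small RNAs counted in, members made up 1.05 to 4.67% of the FPKM in mMSCs. On that scale HL1cm1 (3.32%), HL1cm3 (3.79%) and HL1cm5 (1.99%) lay within the mMSC range, and HL1cm2 (8.44%) and HL1cm4 (8.93%) above it.

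**Figure D1:**
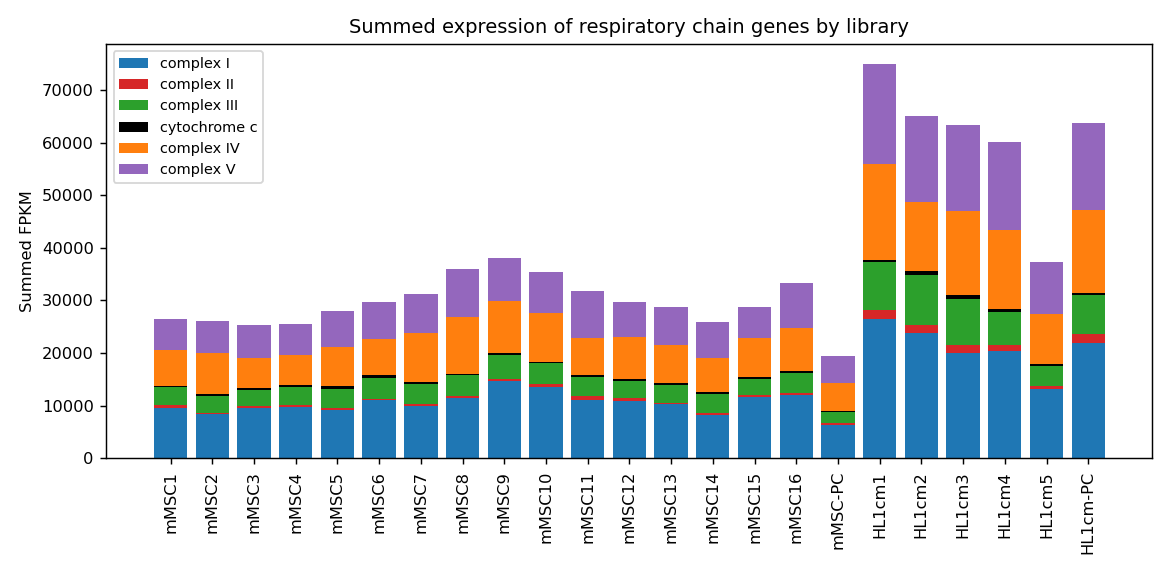
Summed FPKM (linear axis from 0) of the members of each complex in every library, stacked by complex. The total is 25371 to 38154 FPKM in the 16 mMSCs and 60093 to 74994 FPKM in 4 HL1cm, with HL1cm5 at 37217 FPKM and the population controls at 19514 and 63748 FPKM.

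For single genes, values under 1 FPKM were set to 1, log2 values were averaged over the cells of a type, and a gene was called where the averages differed by at least 2-fold. Of the 86 members, 82 had a mean of at least 1 FPKM in either cell type. By this rule 48 of the 82 were higher in HL1cm and 0 were higher in mMSCs. The 48 include Cox7b2 and Cox8b, called through HL1cm3 alone, and Ndufs5, whose reads may be shared with a near-identical copy. Also among them are Cox4nb and Atp5s, which lie outside the complexes. Between the population controls Atp5s was higher in mMSC-PC. Of all 11363 genes that passed the same filter, 23.1% were higher in HL1cm and 22.4% were higher in mMSCs. The median member was 2.29-fold higher in HL1cm, while the median of all genes differed by 0.04 on the log2 scale. The mean level was lower in mMSCs for 78 members and not lower for the remaining 4 (Ndufa1, Ndufa7, Ndufa12 and Atp5sl), all within 2-fold. Of all 11363 genes, 5576 had a lower mean level in mMSCs. Members are abundant transcripts, so the genes with a mean of at least 100 FPKM were also set apart, a filter chosen after seeing the data. Of these, 41 of 72 members and 27.8% of all 1326 genes were higher in HL1cm, against 0 members and 30.5% of genes in the other direction.

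Scaling moved these counts. With every library scaled to the same sum (TPM), 33 of 82 members (40.2%) were at least 2-fold higher in HL1cm, beside 18.5% of all genes. With median ratio scaling the count was 59 (72.0%), beside 26.8% of all genes. As deposited, the share of members was 58.5%. The 2 scalings moved the median of all genes by 0.24 and -0.23 on the log2 scale. Relative to the median of all genes, the median member was lower in mMSCs by a log2 difference of -1.23 as deposited, -1.14 with TPM and -1.30 with median ratio scaling.

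**Figure D2:**
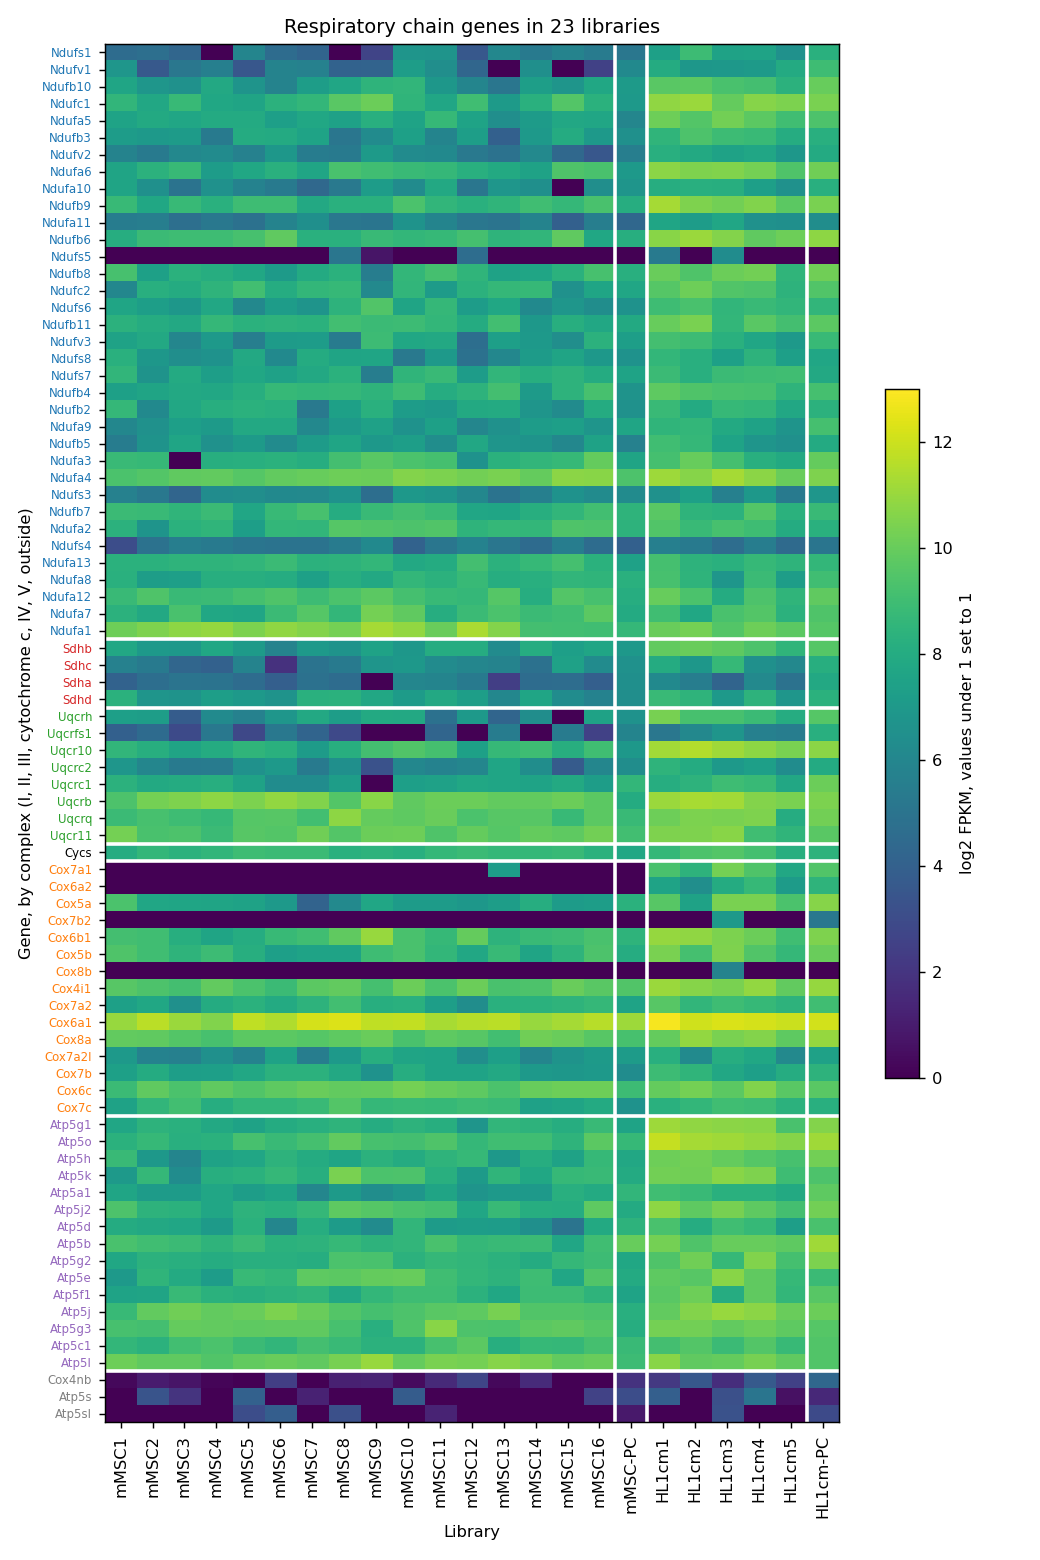
Level of 81 of the 82 members that passed the filter (rows, ordered by complex and, within a complex, by the difference between cell types) in the 23 libraries (columns, separated by white lines into mMSC, mMSC-PC, HL1cm and HL1cm-PC). Colour is log2 FPKM with values under 1 set to 1; Cox7a1 and Cox6a2 are bright in all 5 HL1cm and dark in mMSCs except Cox7a1 in mMSC13.

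Complex I, the NADH dehydrogenase, differed between cell types in core and accessory subunits. Of its 36 tested members 20 were at least 2-fold higher in HL1cm, beside 23.1% of all genes tested. The median over the 36 was 2.31-fold. The 20 include Ndufs5, whose reads may be shared with a near-identical copy. Ndufs1, the largest iron-sulphur subunit, was at 170, 478, 182, 187 and 94.3 FPKM in HL1cm1 to HL1cm5. Its mMSC values ran from 0 FPKM (mMSC4 and mMSC8) over a median of 25.7 to 108 FPKM (mMSC10), which overlaps HL1cm5 only, and the averages differed 8.96-fold. Ndufs1 overlaps Eef1b2 on the opposite strand, a gene at 183 to 412 FPKM in mMSCs. Ndufv1, which carries the NADH site, was at 253, 116, 123, 135 and 248 FPKM in HL1cm. It ran from 0 FPKM (mMSC13 and mMSC15) over a median of 27.5 to 153 FPKM (mMSC10) in mMSCs, 7.46-fold lower on average and with overlapping ranges. With medians over cells in place of means, the log2 difference went from -3.16 to -2.83 for Ndufs1. For Ndufv1 it went from -2.90 to -2.36.

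Among accessory subunits, Ndufb10, Ndufc1 and Ndufa5, named after their values were seen, were 4.50-, 4.34- and 4.19-fold higher in HL1cm, while others of high level differed less. Ndufa1, a membrane subunit encoded on the X chromosome, was among the members of highest level: 518 to 2636 FPKM with a median of 1493 in mMSCs, and 1027, 1264, 725, 1128 and 842 FPKM in HL1cm. All 5 HL1cm lay below the mMSC median. Its average in HL1cm was 0.741 of that in mMSCs, and the sign was the same under each scaling. In the population controls the order was the reverse, at 411 FPKM in mMSC-PC and 755 FPKM in HL1cm-PC. Ndufa4, by newer work assigned to complex IV, was at 649 to 1713 FPKM (median 1041) in mMSCs. In HL1cm it stood at 2217, 1572, 2442, 1738 and 1058 FPKM, a 1.61-fold difference with overlap. Its paralogue Ndufa4l2, known as a hypoxia-induced gene, was listed at 0 in all 23 libraries.

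Ndufa13, an accessory subunit also known as Grim19, was among the steadiest members between mMSCs. Its level was 233 to 584 FPKM with a median of 341 in mMSCs and 308 to 569 FPKM in HL1cm, a difference of -0.10 (mMSC minus HL1cm, log2) that changed sign with TPM. Ndufa3 had the largest SD between mMSCs of any member, 2.29 on the log2 scale. It was listed at 0 in mMSC3, while the other 15 mMSCs held 98.1 to 976 FPKM. HL1cm stood at 574, 1013, 584, 291 and 241 FPKM, inside that range. Ndufs5 cannot be read from this table: its near-identical copy BC002163 was at up to 111 FPKM in mMSCs and 168 FPKM in HL1cm, and Ndufs5 was at 0.0559 FPKM in the median mMSC.

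Complex II, succinate dehydrogenase, also belongs to the tricarboxylic acid cycle and contributed the least of the 5 complexes to the sum. Its 4 subunits together had 179 to 631 FPKM (median 443) in mMSCs, and 574 to 1715 FPKM (median 1436) in HL1cm. Of the 4 members 3 were at least 2-fold higher in HL1cm, beside 23.1% of all genes tested. Sdhb (chr4:140961203-140979193), the iron-sulphur subunit, was at 935, 1034, 868, 656 and 365 FPKM in HL1cm. In mMSCs it was at 57.2 FPKM in mMSC6, 150 in the median cell and 268 in mMSC11. The groups did not overlap, and the averages differed 4.77-fold. Sdhc, a membrane anchor, was at 258, 120, 422, 92.1 and 66.7 FPKM in HL1cm and at 3.57 to 171 FPKM (median 54.4) in mMSCs, 3.39-fold lower with overlap. Sdha, the flavoprotein with the succinate site, was at 71.3, 46.2, 18.3, 69.9 and 30.1 FPKM in HL1cm and at 0 to 62.4 FPKM (median 24.8) in mMSCs, a 2.05-fold difference with overlap. The second anchor, Sdhd, was at 450, 345, 128, 334 and 113 FPKM in HL1cm and at 53.9 to 314 FPKM (median 148) in mMSCs, 1.62-fold apart. Sdhb made up 60.1% of the complex in the mean of HL1cm, whereas Sdhd was the highest of the 4 in mMSCs with 39.8%.

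Complex III passes electrons from ubiquinol to cytochrome c. Of its 8 members, 5 were at least 2-fold higher in HL1cm, beside 23.1% of all genes tested. The median of the 8 was 2.78-fold. Without mMSC9 and mMSC15, the libraries of lowest depth, the median log2 difference of the complex went from -1.48 to -1.09. Uqcr10 (chr11:4701973-4704342), a small membrane subunit, was at 2339, 2928, 2286, 1741 and 1333 FPKM in HL1cm. In mMSCs it ran from 139 FPKM (mMSC7) over a median of 337 to 699 FPKM (mMSC10). Every HL1cm was above every mMSC, and the averages differed 6.08-fold. Uqcrh (chr4:116066965-116075071), the hinge protein that contacts cytochrome c1, was at 1288, 592, 603, 472 and 264 FPKM in HL1cm. In mMSCs it was at 120 FPKM in the median cell, at 238 FPKM in the highest (mMSC9) and at 0 in mMSC15. The groups did not overlap, and the averages differed 8.15-fold. With medians over cells in place of means, the log2 difference of Uqcrh went from -3.03 to -2.31. Uqcrfs1, the Rieske iron-sulphur protein, was low: 35.7, 67.1, 110, 50.3 and 45.6 FPKM in HL1cm. It was listed at 0 in 4 mMSCs (mMSC9, mMSC10, mMSC12 and mMSC14) and reached 43.8 FPKM in mMSC13, above HL1cm1, with a median of 11.8. Its 6.70-fold difference rests on values near the low end of the libraries. Uqcrb, the ubiquinone-binding subunit, was the most abundant of the complex in mMSCs. It stood at 651 to 1926 FPKM (median 1089) there and at 2116, 2543, 2317, 1537 and 1339 FPKM in HL1cm, 1.68-fold higher with overlap. GENCODE lists 3 near-identical copies of Uqcrb, and its reads may be shared with them. The gene Cyc1, cytochrome c1 of the same complex, is not a member by symbol: it was at 0 to 132 FPKM in mMSCs and at 271, 168, 377, 540 and 128 FPKM in HL1cm.

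Cycs, somatic cytochrome c, varied least between mMSCs of the 74 members with a mean of at least 10 FPKM, with an SD of 0.27 on the log2 scale. Its mMSC values ran from 266 to 495 FPKM with a median of 398. In HL1cm it was at 398, 657, 747, 581 and 288 FPKM, so HL1cm1 and HL1cm5 lay within the mMSC range. The averages were 1.33-fold apart, and the population controls stood at 220 and 337 FPKM. GENCODE lists 4 near-identical copies of Cycs, and its reads may be shared with them.

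Complex IV, cytochrome c oxidase, held the genes of largest difference, its muscle isoforms. Cox7a1 (chr7:30184144-30186078, plus strand) was at 622, 343, 1236, 680 and 221 FPKM in HL1cm1 to HL1cm5 and at 699 FPKM in HL1cm-PC. It was listed at 0 in 15 of 16 mMSCs and in mMSC-PC, and at 143 FPKM in mMSC13. Even that cell was below the lowest HL1cm. In mMSC13 the cardiomyocyte gene Tnnt2 was at its highest level of any mMSC, 40.8 FPKM, while Myl7, the atrial myosin light chain, was at 0 there and at 20292 to 46701 FPKM in HL1cm; whether material from other cells took part was not tested. Cox6a2 (chr7:128205435-128206387, minus strand) was at 186, 86.8, 258, 415 and 141 FPKM in HL1cm and 346 FPKM in HL1cm-PC. In mMSC-PC and in all 16 mMSCs its value was 0. Its span overlaps Itgad on the opposite strand, which was itself at 0 in all libraries. No fold is given for either gene, because the value is 0 in all mMSCs for Cox6a2 and in all but mMSC13 for Cox7a1.

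The third muscle form, Cox8b, was seen in HL1cm3 only, at 55.7 FPKM, and was at 0 in HL1cm-PC. Cox7b2, a paralogue of Cox7b, was at 127 FPKM in HL1cm3, at 36.5 FPKM in HL1cm-PC and at 0 elsewhere. Cox6b2, known from testis, was at 30.6 FPKM in HL1cm-PC and at 0 in all 22 other libraries. Cox4i2, known from lung, and Cox8c, known from testis, were listed at 0 in all 23 libraries. Zeros in single-cell libraries can be molecules that were not captured, and the level of these genes in a cell listed at 0 is limited by the depth given above.

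Within isoform families the share of a gene does not depend on the scaling of its library. Cox7a1 made up 36.3, 43.4, 61.5, 51.6 and 35.1% of COX7A in HL1cm1 to HL1cm5, which makes it about as abundant as Cox7a2 there (median 46.7%). In HL1cm-PC its share was 50.2%. In mMSCs Cox7a2 had a median share of 68.9% and Cox7a2l, whose product acts in joining complexes III and IV, had 26.4%; mMSC13 alone had Cox7a1, at 23.7%. The common gene Cox7a2 was itself at 801, 373, 498, 425 and 339 FPKM in HL1cm and 82.7 to 532 FPKM in mMSCs (median 293). HL1cm thus carried Cox7a1 in addition to Cox7a2, which was on average 1.88-fold higher than in mMSCs with overlapping ranges.

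In the COX6A family the muscle form stayed a minor part. Cox6a2 was 2.00 to 8.22% of COX6A in HL1cm, with a median of 3.37%. Its partner Cox6a1 was the most abundant member of all in both cell types. It was at 7345, 4252, 4932, 4634 and 4034 FPKM in HL1cm and 1505 to 5117 FPKM (median 3027) in mMSCs, 1.71-fold apart on average and overlapping. Cox6a1 alone made up 39.2% of the mean FPKM of complex IV in mMSCs and 35.1% in HL1cm. COX8 was almost wholly Cox8a in every library, with Cox8b at 3.98% in HL1cm3.

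**Figure D3:**
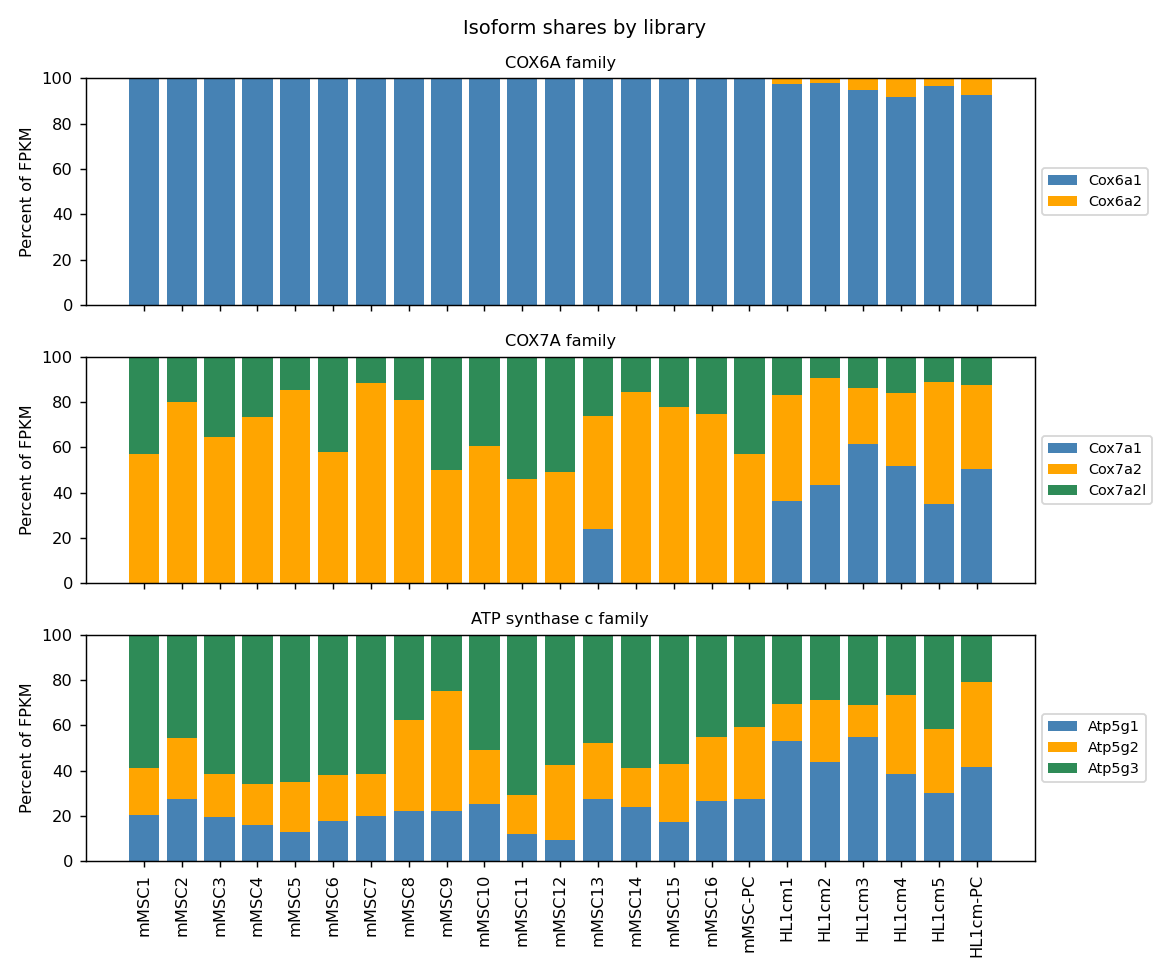
Share of each gene in the summed FPKM of its family (percent, from 0 to 100) in the 23 libraries, for COX6A, COX7A and the c subunit of ATP synthase. Cox7a1 takes 35.1 to 61.5% of COX7A in the 5 HL1cm and appears in mMSC13 alone among mMSCs; Atp5g1 takes 30.2 to 55.0% of the c subunit in HL1cm and 9.52 to 27.7% in mMSCs.

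The common subunits of complex IV differed less than Cox7a1 and Cox6a2. Of all 15 tested members of the complex, muscle forms included, 8 were at least 2-fold higher in HL1cm, beside 23.1% of all genes tested. The median over these 15 was 2.02-fold. The 8 include Cox7a1 and Cox6a2 and, through HL1cm3 alone, Cox7b2 and Cox8b. Cox6a2, Cox7b2 and Cox8b were at 0 in every mMSC and passed the filter through HL1cm. The common subunits called were Cox4i1, Cox5a, Cox5b and Cox6b1, at 2.02-, 4.65-, 2.30- and 2.41-fold. Cox4i1, the regulatory subunit that early steps of assembly need, was at 2091, 1592, 1346, 1871 and 944 FPKM in HL1cm and 461 to 1099 FPKM (median 725) in mMSCs, 2.02-fold apart. Only HL1cm5 fell within the mMSC range. Cox6b1, which faces cytochrome c, was at 1988, 1814, 1393, 1074 and 510 FPKM in HL1cm. Its mMSC range was 192 to 2020 FPKM with a median of 498, the highest being the shallow mMSC9, and the averages were 2.41-fold apart. Cox8a was at 965, 1898, 1343, 1531 and 874 FPKM in HL1cm and 531 to 1165 FPKM in mMSCs, 1.55-fold apart. Cox7b was 1.48-fold and Cox7a2l 1.49-fold higher in HL1cm, both with overlap. Cox6c was level: 826 to 1501 FPKM in HL1cm and 472 to 1257 FPKM in mMSCs, 1.19-fold apart and of opposite sign with TPM.

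Complex V makes ATP. Of its 15 members 10 were at least 2-fold higher in HL1cm, beside 23.1% of all genes tested. The median of the 15 was 2.28-fold. Atp5o, the stalk subunit OSCP, was at 3656, 2450, 2260, 2000 and 1576 FPKM in HL1cm. It was at 292 to 933 FPKM (median 524) in mMSCs. Reads of Atp5o may be shared with Gm15976, which holds a near-identical stretch. The groups did not overlap, the averages differed 4.66-fold, and Atp5o was the most abundant gene of the complex in HL1cm. In mMSCs that place was held by Atp5l, subunit g, at 709 to 2062 FPKM with a median of 1037. In HL1cm Atp5l was at 1660, 921, 962, 1282 and 923 FPKM, 1.01-fold apart, with a sign that turned under TPM. Atp5j, coupling factor 6, was at 928, 1550, 2064, 1725 and 1059 FPKM in HL1cm and 428 to 1408 FPKM (median 846) in mMSCs, 1.68-fold apart with overlap. Atp5b, the catalytic beta subunit, is given as an example chosen after its values were seen: it was at 1258, 682, 994, 1014 and 875 FPKM in HL1cm and 210 to 625 FPKM in mMSCs, 2.28-fold apart without overlap.

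The c subunit, which forms the rotor ring, is encoded by 3 genes whose mature products are the same protein and whose targeting peptides differ. Atp5g1 (chr11:96068852-96075670) was at 2194, 1829, 1687, 1648 and 626 FPKM in HL1cm. In mMSCs it was at 110 FPKM in mMSC12, 287 in the median cell and 450 in mMSC16. Every HL1cm was above every mMSC, with averages 5.39-fold apart. Atp5g3 (chr2:73908447-73911326) was at 1266, 1204, 953, 1133 and 862 FPKM in HL1cm and 290 to 1656 FPKM (median 806) in mMSCs, 1.42-fold apart. Atp5g2 was at 682, 1154, 425, 1498 and 584 FPKM in HL1cm and 214 to 635 FPKM (median 325) in mMSCs, 2.26-fold apart. Shares within the family differed: Atp5g3 held a median of 58.0% in mMSCs and 30.6% in HL1cm, and Atp5g1 held 20.04% and 43.7%. Atp5g2 led in mMSC8 (40.2%) and mMSC9 (52.9%) and Atp5g3 in HL1cm5 (41.6%). The Atp5g1 shares of the 5 HL1cm, 30.2% at the lowest, all exceeded the highest mMSC share of 27.7%. In the population controls Atp5g1 was 27.5% in mMSC-PC and 41.6% in HL1cm-PC. GENCODE holds 1 near-identical copy of Atp5g1, with which its reads may be shared.

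The 3 genes outside the complexes were low. Cox4nb, a subunit of an endoplasmic reticulum membrane complex, was at 3.20 to 12.99 FPKM in HL1cm and 0 to 6.56 FPKM in mMSCs. Atp5s was at 0 in the median mMSC and at 15.5, 0, 9.02, 33.8 and 1.47 FPKM in HL1cm, but at 8.37 FPKM in mMSC-PC and 2.78 FPKM in HL1cm-PC. Atp5sl was above 0 in HL1cm3 only among HL1cm, at 9.83 FPKM.

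The population controls are a second library of each cell type, without replicates. In bulk samples, fewer cells of a type and less RNA per cell cannot be told apart. Of 81 members at 1 FPKM or more in either control, 66 were at least 2-fold higher in HL1cm-PC, beside 39.0% of all 11509 genes. In the other direction 1 member (Atp5s) was called, beside 20.5% of all genes. The median member was 3.45-fold higher in HL1cm-PC, against 1.45-fold for the median gene. Of the 80 members tested in both comparisons, 74 had the same sign in both and 64 had the larger difference in the population controls. For these 2 counts the share over all genes is not given here. The members called in both were 43, beside 18.9% of genes. Uqcr10 was at 122 FPKM in mMSC-PC and 1728 FPKM in HL1cm-PC, 14.2-fold apart, and Atp5g1 at 183 and 1525 FPKM, 8.32-fold apart. Summed over all members, mMSC-PC held 19514 FPKM, less than any single mMSC, and HL1cm-PC 63748 FPKM, within the range of single HL1cm.

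**Figure D4:**
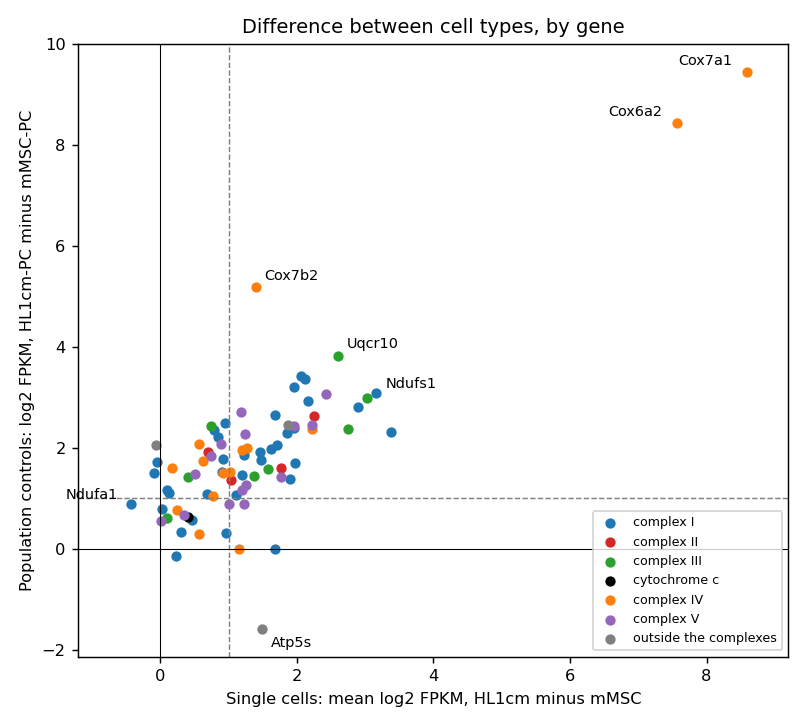
Difference between cell types for each member that passed the filter in single cells: mean log2 FPKM of HL1cm minus mMSC (x axis) against log2 FPKM of HL1cm-PC minus mMSC-PC (y axis), with values under 1 set to 1 and dashed lines at 2-fold. Most members lie above 0 on both axes; Cox7a1 and Cox6a2 stand far to the upper right, where their position depends on that limit because mMSCs are at 0, and Ndufa1 lies left of 0.

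Single mMSCs and their own control did not match in level. Members with a mean of 10 FPKM or more were compared. The average of the mMSCs was higher than mMSC-PC for 54 of 74 (73.0%), beside 35.2% of all 4658 genes of that level. The median log2 difference was 0.42 for members and -0.52 for all genes. In HL1cm the average was higher than HL1cm-PC for 31 of 80, with a median of -0.22 against -0.96 for all genes. Uqcrb was at 651 to 1926 FPKM in mMSCs and 253 FPKM in mMSC-PC, so that every single cell exceeded the control. Its reads may be shared with near-identical copies.

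Between mMSCs, members had smaller SDs than the median gene of the table. Over the 74 members with a mean of at least 10 FPKM, the median SD of log2 FPKM was 0.71, against 1.56 for all 4658 genes of that level. The gap was narrower among abundant genes: at a mean of at least 100 FPKM the medians were 0.62 for 62 members and 0.71 for all 999 genes. The steadiest were Cycs (SD 0.27), Cox8a (0.31), Ndufa13 (0.35), Cox6c (0.37) and Atp5l (0.37). The least steady were Ndufa3 (2.29), Ndufv1 (2.19), Uqcrh (2.08), Uqcrfs1 (2.07) and Ndufs1 (2.04), each listed at 0 in at least 1 mMSC. Of the 74 members 9 had such a 0, and the matching share of all 4658 genes is not given here. The libraries of lowest depth held, among others, zeros of Sdha, Uqcrc1 and Uqcrfs1 (mMSC9) and of Ndufa10, Ndufv1 and Uqcrh (mMSC15), and further zeros lay in deeper cells; the part of depth in them was not tested. Over the 1891 pairs of 62 members, the median Pearson's r across the 16 mMSCs was 0.04, and for all genes of the same level it was close to 0. These points share their library and depth, and the values are a description.

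**Figure D5:**
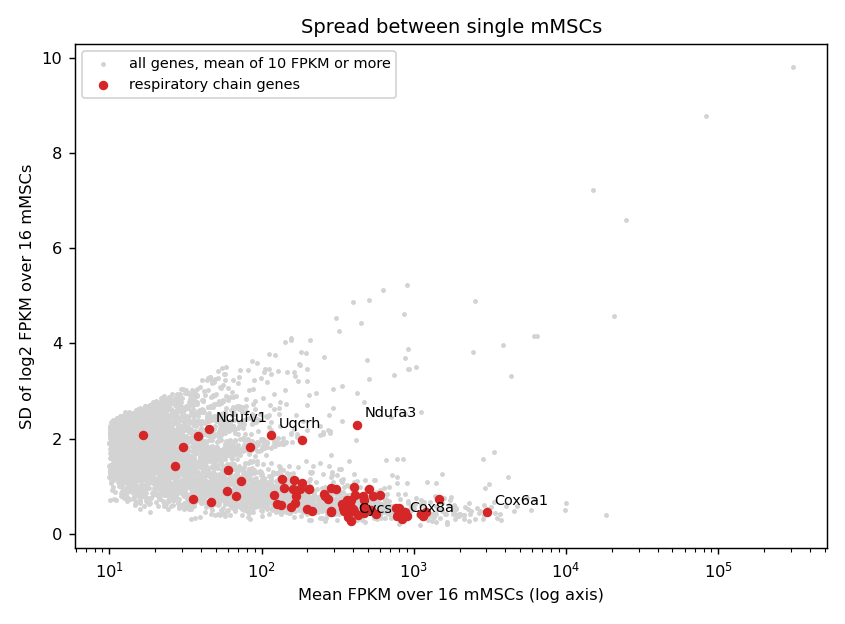
SD of log2 FPKM over the 16 mMSCs (y axis) against mean FPKM (x axis, log scale) for members (red) and for all genes with a mean of 10 FPKM or more (grey). Members with a mean of at least 100 FPKM have a median SD of 0.62, Cycs lies lowest at 0.27 and Ndufa3 highest at 2.29.

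Other genes of mitochondrial energy metabolism were taken from lists. Of 14 tricarboxylic acid cycle genes 9 were at least 2-fold higher in HL1cm and 0 in mMSCs, beside 23.1% and 22.4% of all genes tested. The median log2 difference of this list was -1.30 (mMSC minus HL1cm). Idh2, mitochondrial isocitrate dehydrogenase, was at 91.1 to 379 FPKM in HL1cm and 0 to 65.2 FPKM in mMSCs. Fh1, fumarase, had a log2 difference of -3.08. Of 15 tested genes of fatty acid oxidation, a main fuel path of heart muscle, 14 were higher in HL1cm and 0 in mMSCs. These counts stand beside the same shares of all genes, and the median of the list was -2.44. Acadl, long-chain acyl-CoA dehydrogenase, was at 97.6 to 380 FPKM in HL1cm and 0 to 33.4 FPKM in mMSCs. Acadm and Etfdh, which passes the electrons on to ubiquinone, had log2 differences of -4.14 and -3.91.

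Assembly factors are proteins that build the complexes but are not part of them. Of 41 listed, 27 were tested here; 9 of them were at least 2-fold higher in HL1cm and 6 in mMSCs, beside 23.1% and 22.4% of all genes tested, with a median log2 difference of -0.23. Ecsit, for complex I, was at 9.96 to 65.0 FPKM in HL1cm and 0 to 27.7 FPKM in mMSCs. Sco2, a copper carrier for complex IV, went the other way: 0 to 146 FPKM in mMSCs and 0 in 4 of 5 HL1cm, with 4.95 FPKM in HL1cm4. Cox10, for heme synthesis, was at 8.46 to 60.3 FPKM in HL1cm and 0 to 32.3 FPKM in mMSCs.

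Of 15 tested regulators of mitochondrial biogenesis 6 were at least 2-fold higher in HL1cm and 3 in mMSCs, beside the same 23.1% and 22.4% of all genes, and most were at low levels. The count for HL1cm includes Polrmt, the mitochondrial RNA polymerase, which was above 0 in HL1cm2 alone of the 5, and that for mMSCs includes Nrf1, with a log2 difference of 1.01 in single cells and -1.09 between the controls; both were named after their values were seen. Ppargc1a, the coactivator PGC-1 alpha, was at 7.96, 13.03, 10.2, 42.5 and 19.0 FPKM in HL1cm. It was at 0 in 14 of 16 mMSCs and in mMSC-PC and reached 10.9 FPKM in the highest mMSC. Tfb2m, a mitochondrial transcription factor, was at 4.38 to 73.3 FPKM in HL1cm and 0 to 74.4 FPKM in mMSCs. Myc was above 0 in 15 of 16 mMSCs (median 47.9 FPKM) and in 1 of 5 HL1cm, while the controls were nearer each other, at 115 FPKM in mMSC-PC and 87.4 FPKM in HL1cm-PC.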

How the data were processed

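The authors aligned paired reads to mm10 with TopHat 2.0.12, estimated abundance with Cufflinks 2.2.1 and deposited FPKM values for 23284 genes in 23 libraries; per the study's methods both tools ran with default options. FPKM scales fragments by transcript length and by the mapped fragments of the library. No read counts were used, so no count test was run. The preparation does not keep strand, and fragments of near-identical copies may be split. Depth was read from the table as the 2% quantile of positive FPKM times transcript length over genes with transcripts of 1500 to 4000 bases in GENCODE M21. It limits low values, and these figures cover counting only.

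Any value under 1 FPKM counted as 1 on the log2 scale. Genes with a mean of 1 FPKM or more in either cell type were compared, and called at 2-fold. No test was made between cell types, since no separate cultures are named and cells are not replicates. Members, gene lists and rules were chosen with earlier results of these data known. Named genes are all isoform family members, Cycs and Sdh genes, the 10 of largest difference, the 10 of highest level, the 5 of largest and of smallest SD, and 3 per list; some of these are not reported here. The code that computes the differences was checked on simulated data. Alternatives changed the log scale, scaling, filter, average and cells. Near-identical genes were found with BLAST 2.17.0 (95% identity) for 24 members. Python 3.11.15, numpy 2.4.6 and pandas 2.3.3 were used. Promoter windows came from RefSeq (GRCm38.p6).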

Additional observations from a re-analysis of the deposited data

Results flagged for a closer look

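In the 5 HL1cm, 54 values (the levels of the named genes, the sums by complex and the shares of the isoform genes) were examined for a single cell far from the others by Dixon's test, which chance exceeds in about 1 of 20 groups, and 6 were found. Cox6a1 was at 7345 FPKM in HL1cm1, with the other HL1cm at 4034 to 4932 FPKM. Ndufs1 was at 478 FPKM in HL1cm2, with the others at 94.3 to 187 FPKM. The remaining 4 belong to HL1cm3: Cox7b2 at 127 FPKM, or 36.6% of COX7B, and Cox8b at 55.7 FPKM, or 3.98% of COX8, each with the other HL1cm at 0. In these 4 each gene is counted both as level and as share. A gene above 0 in a single HL1cm is always flagged by this rule, so the rate of 1 of 20 does not apply to them.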

How the results depend on the processing

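All complex medians and the member median kept their direction under every alternative tried, and the count of members at least 2-fold higher in HL1cm ran from 33 (TPM) to 59 (median ratio scaling) around 48. Leaving out each HL1cm in turn gave 42 to 55. With members that have near-identical copies left out, an alternative added after seeing the data, 36 of 58 members were called. The share of all 11363 genes, 23.1%, was taken without leaving out such genes, so the 2 sets are unlike. The 1 member higher in mMSC-PC (Atp5s) became 0 when values under 10 FPKM were set to 10. The median SD of all genes between mMSCs was 2.16 with values under 0.1 set to 0.1, 0.863 with values under 10 set to 10 and 1.43 without mMSC9 and mMSC15, and the median SD of members was 0.911 with TPM (for TPM the cause was not tested). No paired analysis was possible because the results come from no test and the shared numbers only name cells. No separate cultures are named, each control is 1 library, depth is shallow, and FPKM shares out fragments among copies.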

Other observations

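Cyc1 and Ndufab1, subunits of complexes III and I whose symbols fall outside the rule, were lower in mMSCs by log2 differences of -3.76 and -2.53. Gapdh, a glycolytic gene, was at 157 to 319 FPKM in mMSCs and 190 to 395 FPKM in HL1cm, a log2 difference of -0.34, while mMSC-PC at 551 FPKM was above HL1cm-PC at 328 FPKM. Esrrg, an ERR family receptor, was at 1.24 to 11.9 FPKM in HL1cm and at 0 in 15 of 16 mMSCs; it was picked with these values in view.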
